A study of Elodea nuttallii and Chlamydomonas reinhardtii with 18 samples.

Results

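Shoots of the waterweed Elodea nuttallii that spent 2 h in the River Olt at Babeni site 2 are compared here with shoots that spent the same time at Valcea. The comparison takes every library of these sites, 3 at Babeni site 2 and 3 at Valcea, which are 6 of the 18 libraries of the series. All shoots were the apical 10 cm of plants gathered at an uncontaminated place and then placed in the river, so the groups share their origin, tissue and exposure time and differ in the site. Another site, Babeni site 1, holds 3 more Elodea libraries, which enter the estimate of the spread and are used to show where Babeni site 2 differs from it, and the remaining 9 libraries are of an alga and are not used here. The title of the series gives the field toxicity of mercury as its subject. Neither the mercury level at any site nor the hour at which shoots were put in or taken out is given in the sources used here, so site, water chemistry and hour cannot be told apart. Whether a site's libraries stem from different plants is not in the labels either. The p-values therefore rest on the scatter among these libraries alone, and that scatter may be technical.

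Elodea nuttallii is a rooted freshwater plant that lives wholly under water. Its thin leaves have no working stomata and take up carbon, nutrients and dissolved metals directly from the water. In green shoots much of the mRNA serves photosynthesis: antenna proteins collect light, the photosystems turn it into electron flow, and the Calvin cycle fixes carbon with RuBisCO. Plants adjust these genes within hours through photoreceptors, the circadian clock, sugars and stress signals. Mercury ions bind thiol groups of proteins, and glutathione, thioredoxins, metal transporters and chaperones are among the systems known to respond to it in plants.

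Expression is given as normalised read counts (CPM, scaled by the authors), and a difference is Babeni site 2 minus Valcea on the log2(CPM + 0.5) scale with its standard error (SE), which understates the change of low transcripts. A transcript rose or fell where it differed by at least 2-fold with an adjusted p (limma, Benjamini-Hochberg over all tested transcripts) under 0.05. The Valcea libraries held 2875062, 4633231 and 4875382 reads and those of Babeni site 2 held 7824727, 7219391 and 6932366, so the shallow side is Valcea, where 3 reads amount to 0.564 to 1.19 CPM. CPM is not divided by transcript length, so levels are compared between libraries and not between genes. Markers of green shoots were present in every library: the 93 described transcripts of RuBisCO, antenna proteins and photosystems summed to 16196 to 21853 CPM at Valcea and 5728 to 7346 CPM at Babeni site 2, with 37 of them fallen and 3 risen. They include 7 transcripts of PsbS, a photoprotection gene, and the other 86 summed to 9089 to 12648 CPM at Valcea and 4275 to 5551 CPM at Babeni site 2, with 30 fallen. Both sums cover only transcripts described in the authors' tables of changes, so green-shoot transcripts the authors did not call are left out. Summed over all its transcripts, the antenna locus Locus_41 went from 12076 ± 1995 to 10850 ± 1569 CPM. The RuBisCO small subunit locus Locus_56 went from 6410.0 ± 846 to 1930.3 ± 296 CPM. A single marker of other organisms was described, a fucoxanthin-binding protein of the kind found in diatoms and brown algae (Locus_12779_Transcript_1_1_). It stood at 21.8, 19.6 and 21.1 CPM at Valcea and 6.90, 8.26 and 8.66 CPM at Babeni site 2, a difference of -1.34 ± 0.17, adjusted p = 2.7e-05, and the part of attached algae in other results was not tested.

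Of 56752 tested transcripts, 3407 (6.00%) rose and 3454 (6.09%) fell, 12.1% in all. The groups did not overlap, in one direction or the other, for 20357 transcripts, 35.9% of those tested, and for 3336 of the risen and 3409 of the fallen ones. The median difference was 1.41 among risen and -1.43 among fallen transcripts. Rises of at least 4-fold numbered 711 and falls 677, and rises of at least 16-fold numbered 57 and falls 41. The fallen transcripts were the more abundant set. They held 12.7% to 13.4% of all CPM in the Valcea libraries and 4.12% to 4.22% in those of Babeni site 2, while the risen ones went from 1.79% to 2.19% up to 6.02% to 6.85%. In bulk shoots, fewer cells of a type and less RNA per cell cannot be told apart.

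**Figure D1:**
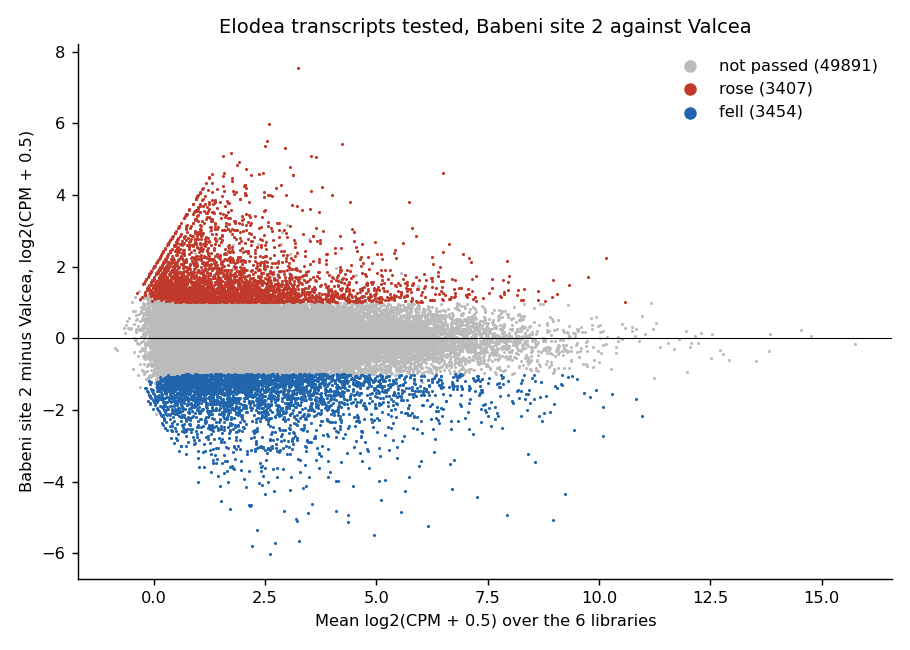
Each point is 1 of the 56752 tested transcripts, with its mean log2(CPM + 0.5) over the 6 libraries on the x axis and the difference between Babeni site 2 and Valcea on the y axis. The 3407 risen transcripts are red, the 3454 fallen ones blue and the rest grey, and changed transcripts lie over the whole range of abundance, with more falls than rises at its upper end.

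Gene descriptions come only from the authors' tables of changes, which describe 4685 of the tested transcripts over 2933 loci. Described transcripts were therefore chosen on these samples: 27.0% of them rose and 32.1% fell (59.1% changed), against 4.11% and 3.75% of the transcripts with no description (7.86% changed). Every list count against Valcea is a description to be read against 27.0% and 32.1%, and is not independent evidence of a direction. In the direct test between the Babeni sites, 5.38% of described transcripts were higher and 8.62% lower at Babeni site 2. Reads cannot be assigned with certainty to 1 of several transcripts assembled from the same locus, so the locus sum is given for each named changed transcript whose sum changed by under 2-fold, and for some others. The lists at the fallen end were photoprotection, the Calvin cycle and photorespiration, light signalling and phenylpropanoids, and at the risen end receptor-like kinases stood first.

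**Figure D2:**
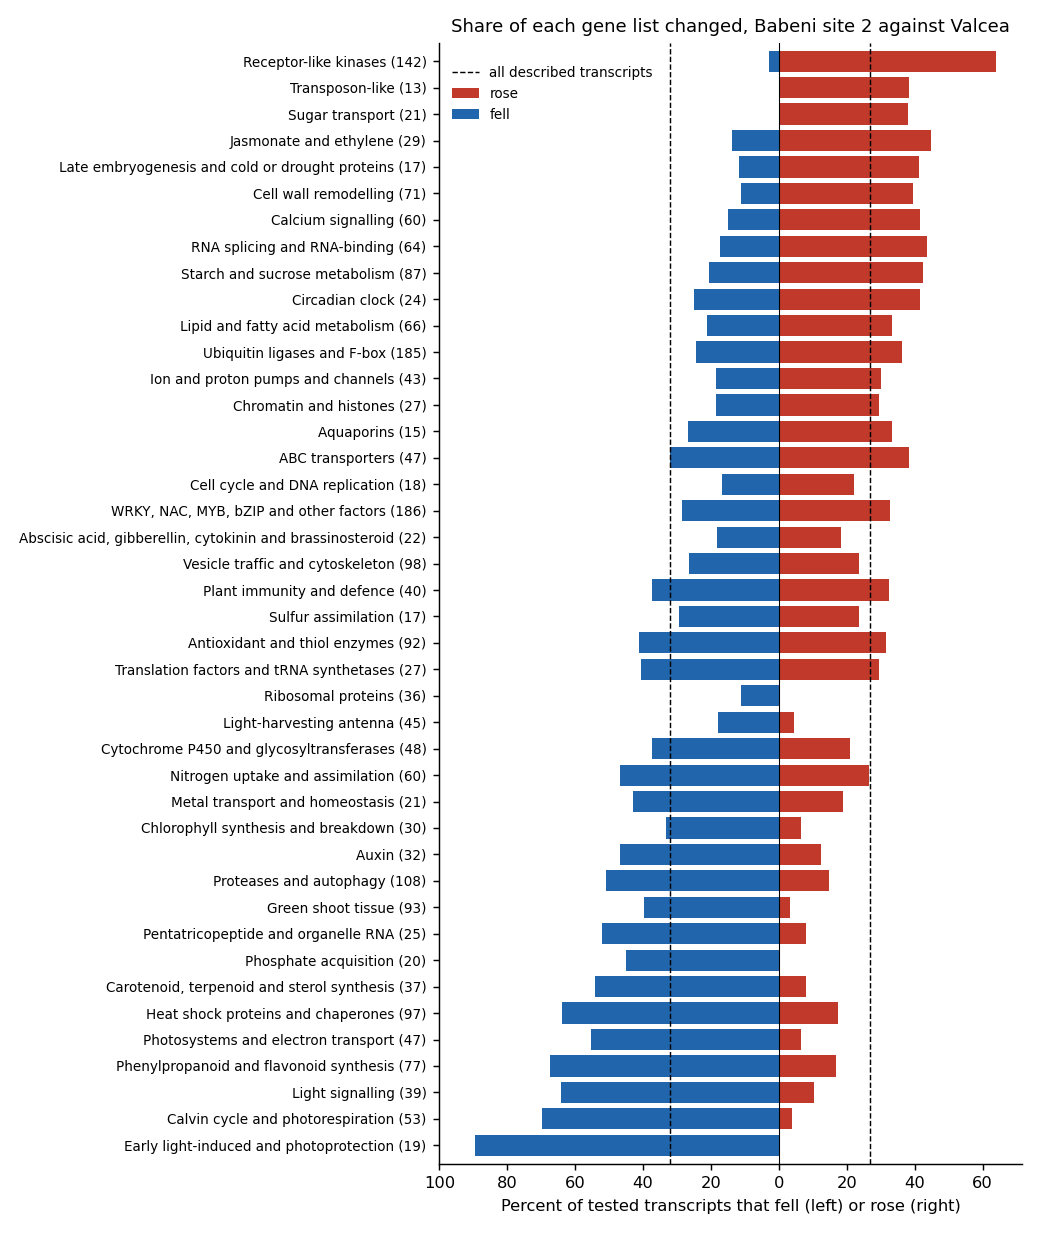
Bars give the percent of tested transcripts of each gene list with at least 10 of them that rose (right, red) or fell (left, blue) at Babeni site 2 against Valcea, with the number tested in brackets, ordered by the difference of both shares. Dashed lines mark the 27.0% and 32.1% of all described transcripts that rose and fell, receptor-like kinases lie far to the right of them and photoprotection far to the left.

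Photoprotection fell together. Of 19 tested transcripts in 8 loci of early light-induced proteins, PsbS and enzymes of the xanthophyll cycle, 17 fell and 0 rose, with a median difference of -2.16. Early light-induced proteins are relatives of antenna proteins that bind pigments while the photosynthetic apparatus is rebuilt or under excess light. Their transcript Locus_1947_Transcript_1_4_ stood at 243, 205 and 173 CPM at Valcea and 4.56, 4.26 and 3.46 CPM at Babeni site 2, a difference of -5.49 ± 0.17, adjusted p = 3.4e-12. The groups lay far apart, and Babeni site 1 was in between at 28.7 ± 5.15 CPM, from which Babeni site 2 differed by -2.66 ± 0.17. PsbS senses acidification of the thylakoid lumen and switches on the dissipation of light energy as heat. Its transcript Locus_27_Transcript_15_16_ was at 4788, 4183 and 3713 CPM at Valcea and 921, 879 and 1021 CPM at Babeni site 2 (-2.16 ± 0.13, adjusted p = 3.6e-09). All 11 tested transcripts of that locus fell, and their sum, which does not depend on how reads were split among them, went from 8367 ± 1151 to 1616 ± 172 CPM. Zeaxanthin epoxidase, which returns zeaxanthin to violaxanthin and so closes the photoprotective cycle in low light, fell from 32.6, 28.2 and 36.9 CPM to 6.32, 9.76 and 5.92 CPM (Locus_1009_Transcript_2_2_, -2.10 ± 0.19, adjusted p = 5.0e-07).

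Components of the photosystems and electron transport fell in 26 of 47 transcripts and rose in 3, a count that was 1 without Babeni site 2 replicate 3. A photosystem II stability and assembly factor (Locus_1310_Transcript_7_9_) stood at 268, 275 and 271 CPM at Valcea and 69.8, 59.2 and 67.6 CPM at Babeni site 2, a difference of -2.05 ± 0.12, adjusted p = 4.2e-09, with little spread within either site. The catalytic chain of ferredoxin-thioredoxin reductase, which passes electrons from photosystem I to the thioredoxins that activate Calvin cycle enzymes, fell from 55.4 ± 4.03 to 19.2 ± 2.15 CPM (Locus_12620_Transcript_3_3_, -1.51 ± 0.14, adjusted p = 8.5e-07). CP43, a core antenna protein of photosystem II that plants encode in the plastid genome, had the highest CPM of the list and did not pass. Its values were 697, 996 and 146 CPM at Valcea and 319, 124 and 444 CPM at Babeni site 2 (Locus_10182_Transcript_1_1_, -0.84 ± 0.51, adjusted p = 0.273), and Valcea replicate 3 lay far below the other Valcea libraries.

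Antenna proteins changed in few transcripts. Of 45 transcripts of chlorophyll a/b-binding proteins, 8 fell, or 5 without Babeni site 2 replicate 2 or without Valcea replicate 1, and 2 rose, both below the described background. The most abundant member by CPM, an LHCII type III protein (Locus_303_Transcript_12_13_), was at 544, 460.5 and 416 CPM at Valcea and 364, 348 and 367 CPM at Babeni site 2, a difference of -0.39 ± 0.12, adjusted p = 0.027 and under 2-fold. Against Babeni site 1 the same protein differed by -1.06 ± 0.12, and 31 of the 45 transcripts were lower at Babeni site 2 than at Babeni site 1, against 1.63% of all tested and 8.62% of described transcripts. The 45 described antenna transcripts summed to 2051 to 2871 CPM at Valcea and 1776 to 2059.5 CPM at Babeni site 2. At Babeni site 1 they summed to 3756 to 4512 CPM. They are a part of the antenna signal. All transcripts of the antenna locus Locus_41 summed to 9788 to 13446 CPM at Valcea and 9143 to 12231 CPM at Babeni site 2. Babeni site 2 differed from Valcea by -0.15 ± 0.17 in that locus (adjusted p = 0.575). At Babeni site 1 the locus summed to 14712 to 18850 CPM. In both sums Babeni site 1 was highest, and Valcea overlapped with Babeni site 2. An antenna transcript that rose was Locus_88_Transcript_3_4_, from 52.1 ± 10.5 to 122 ± 4.91 CPM (1.24 ± 0.14, adjusted p = 5.6e-06).

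Pigment synthesis held more falls than rises. In chlorophyll synthesis and breakdown 10 of 30 transcripts fell, and that 33.3% was near the 32.1% of all described transcripts. Rises numbered 2, or 6.67% against 27.0%, and 1 without Valcea replicate 1 or without any single Babeni site 2 library. Chlorophyllide a oxygenase makes chlorophyll b, and its transcript Locus_8702_Transcript_3_6_ was at 11.1, 21.8 and 21.3 CPM at Valcea and at 0.234, 0.751 and 0.578 CPM at Babeni site 2 (-4.16 ± 0.31, adjusted p = 6.1e-08). The other transcripts of that locus moved less, and the locus sum went from 41.3 ± 7.52 to 13.6 ± 0.800 CPM. A transcript described as protochlorophyllide chloroplastic-like rose, from 2.38, 1.42 and 0.564 to 16.3, 14.1 and 14.4 CPM (Locus_387_Transcript_3_4_, 3.09 ± 0.28, adjusted p = 4.9e-07). In the synthesis of carotenoids, terpenoids and sterols 20 of 37 fell and 3 rose, or 1 without Babeni site 2 replicate 1. A transcript described as geranylgeranyl diphosphate chloroplastic-like, by the name of the common precursor of carotenoids and of the chlorophyll tail, fell from 616, 519.9 and 456 CPM to 156, 169 and 169 CPM (Locus_33_Transcript_9_10_, -1.68 ± 0.12, adjusted p = 5.3e-08).

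The Calvin cycle and photorespiration fell in 37 of 53 transcripts, over 18 of 26 loci, and rose in 2, or 1 without Valcea replicate 3. The small subunit of RuBisCO, the enzyme that fixes carbon dioxide, stood at 3461, 3649.6 and 2881 CPM at Valcea and 959, 901 and 1208 CPM at Babeni site 2 (Locus_56_Transcript_9_10_, -1.71 ± 0.15, adjusted p = 3.6e-07). The groups did not overlap, and the locus sum fell from 6410.0 ± 846 to 1930.3 ± 296 CPM. Chloroplast glyceraldehyde-3-phosphate dehydrogenase, which reduces the first product of fixation, fell from 2165 ± 172 to 736 ± 53.6 CPM (Locus_333_Transcript_26_27_, -1.55 ± 0.12, adjusted p = 6.8e-08). Photorespiration recovers carbon when RuBisCO reacts with oxygen, through glyoxylate and glycine. Its glycine cleavage H protein fell from 199.8, 189 and 162 CPM to 27.8, 36.9 and 49.1 CPM (Locus_5558_Transcript_1_1_, -2.29 ± 0.18, adjusted p = 9.4e-08). Hydroxypyruvate reductase HPR3-like fell from 8.82 ± 2.00 to 0.471 ± 0.191 CPM (Locus_889_Transcript_4_7_, -3.26 ± 0.33, adjusted p = 1.8e-06), and a glyoxylate reductase from 15.9 ± 3.94 to 0.728 ± 0.146 CPM (Locus_395_Transcript_10_13_, -3.72 ± 0.28, adjusted p = 6.9e-08). A fall also held for the sum over the latter's locus, from 291 ± 77.5 to 28.6 ± 2.06 CPM.

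**Figure D3:**
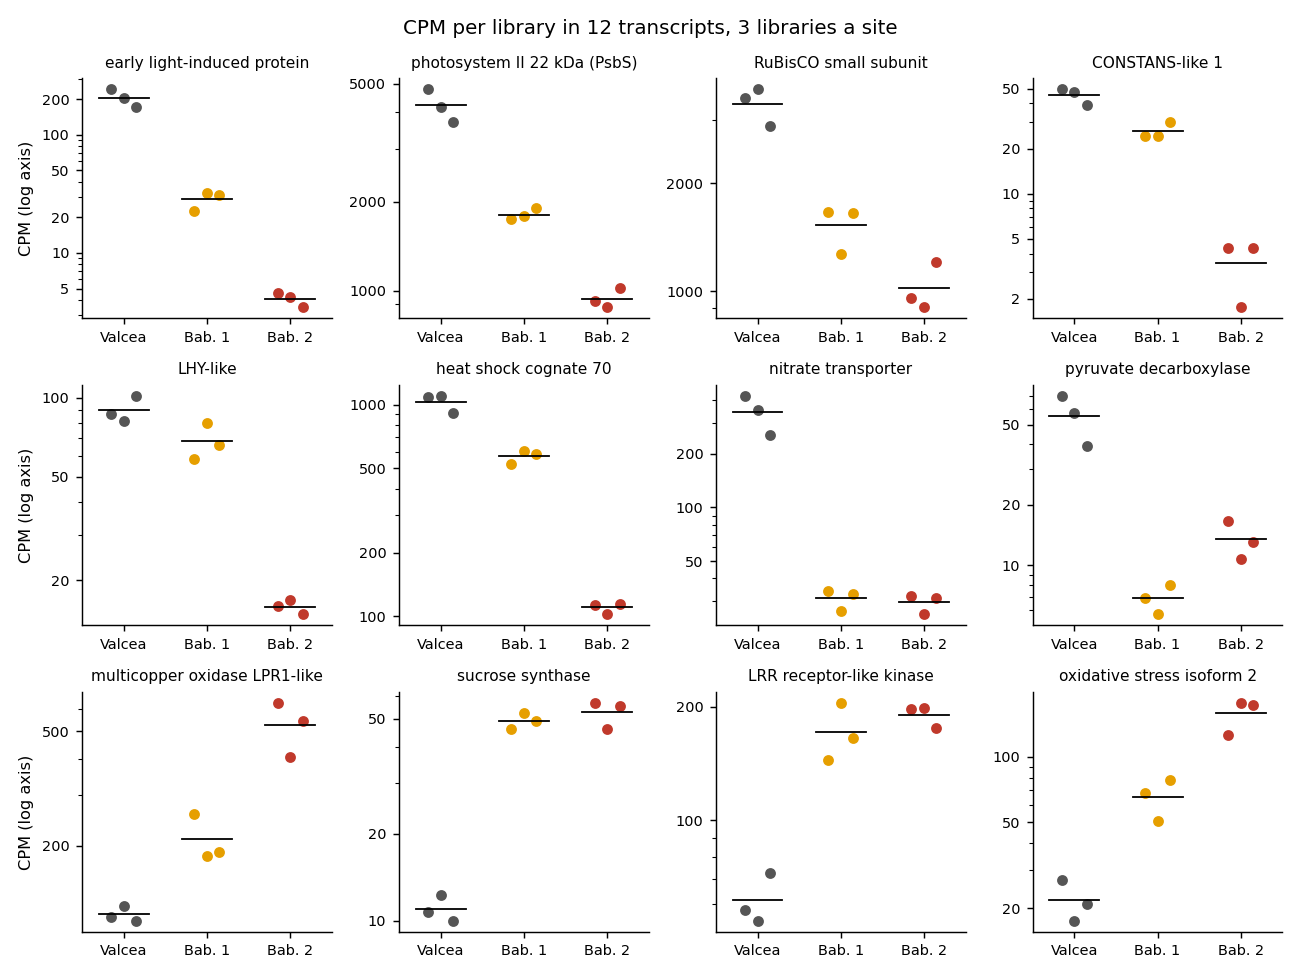
Points are the CPM of single libraries on log axes for 12 transcripts at Valcea, Babeni site 1 (Bab. 1) and Babeni site 2 (Bab. 2), 3 libraries a site, and lines are site means. In all 12 the Babeni site 2 points lie clear of the Valcea points, as for CONSTANS-like 1 with 4.33, 1.75 and 4.33 CPM against 49.6, 47.8 and 39.3 CPM.

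Light signalling fell in 25 of 39 transcripts and rose in 4, a count that was 1 and 2 when Babeni site 2 replicate 1 or 2 was left out and 8 without Valcea replicate 2. CONSTANS-like 1, a B-box protein of a family that reads day length and light, was at 49.6, 47.8 and 39.3 CPM at Valcea and 4.33, 1.75 and 4.33 CPM at Babeni site 2 (Locus_11587_Transcript_4_6_, -3.61 ± 0.24, adjusted p = 1.9e-08). All 4 tested transcripts of this locus fell. Babeni site 1 stood at 26.2 ± 3.41 CPM, and the difference of Babeni site 2 from it was -2.82 ± 0.24. COP1 and SPA proteins form a ubiquitin ligase that removes light-response factors in the dark. A COP1-like transcript fell from 13.1, 10.4 and 7.34 CPM to 0.819, 1.00 and 0.433 CPM (Locus_10139_Transcript_1_2_, -3.10 ± 0.27, adjusted p = 4.5e-07). SPA1-related 4 went from 6.08 ± 0.718 to 0.249 ± 0.103 CPM (Locus_7044_Transcript_4_5_, -3.14 ± 0.34, adjusted p = 4.5e-06) and SPA1-related 3 from 65.0 ± 15.5 to 17.7 ± 1.44 CPM (Locus_3617_Transcript_18_19_, -1.82 ± 0.16, adjusted p = 3.8e-07). In the direct test 18 of the 39 were lower at Babeni site 2 than at Babeni site 1 and 0 were higher, against 8.62% and 5.38% of described transcripts, with CONSTANS-like 1, COP1-like and both SPA1-related transcripts among the lower ones.

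The circadian clock changed in both directions, with 10 of 24 transcripts risen and 6 fallen. LHY, a MYB factor that peaks around dawn in Arabidopsis, was at 87.0, 81.6 and 102 CPM at Valcea and 15.9, 16.9 and 14.9 CPM at Babeni site 2 (Locus_408_Transcript_39_41_, -2.46 ± 0.14, adjusted p = 4.2e-09). At Babeni site 1 it was at 68.1 ± 10.9 CPM, and the direct difference between the Babeni sites was -2.06 ± 0.14. Transcripts described as the pseudo-response regulator APRR3, whose Arabidopsis namesake peaks later in the day, rose in 2 loci. Locus_4292_Transcript_7_10_ went from 0, 0.473 and 0.941 CPM to 5.03, 6.13 and 5.78 CPM (2.79 ± 0.39, adjusted p = 6.0e-05). All 8 tested transcripts of that locus rose, and its sum went from 10.4 ± 3.01 to 56.6 ± 3.26 CPM. In the other locus 9 of 10 rose, and its sum went from 10.1 ± 0.774 to 39.3 ± 2.36 CPM (Locus_11255_Transcript_6_13_). The hour of collection is not given, and its part in the light and clock results was not tested.

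Of 87 transcripts for starch and sucrose metabolism 37 rose and 18 fell. By locus the directions were closer to even, with risen transcripts in 12 of 35 loci and fallen ones in 10. A sucrose synthase locus, Locus_326, held 13 risen and 0 fallen among its 28 tested transcripts. Sucrose synthase splits sucrose into building blocks for respiration and cell walls. Locus_326_Transcript_4_43_ stood at 10.7, 12.3 and 9.97 CPM at Valcea and 56.7, 46.1 and 55.2 CPM at Babeni site 2 (2.21 ± 0.14, adjusted p = 1.3e-08), and the sum of the locus went from 1304 ± 53.5 to 2566 ± 278 CPM, a difference of 0.97 ± 0.11 (adjusted p = 2.2e-05). Sucrose-phosphate synthase, which makes sucrose, moved the other way: Locus_3783_Transcript_10_11_ was at 871, 882 and 958 CPM and then 368, 385 and 355 CPM (-1.29 ± 0.11, adjusted p = 2.8e-07). This call was lost with quantile normalization. A soluble acid invertase, which splits sucrose in the vacuole, fell from 11.8 ± 3.14 to 2.15 ± 0.360 CPM (Locus_1316_Transcript_6_8_, -2.19 ± 0.27, adjusted p = 1.6e-05). Of 21 sugar transport transcripts 8 rose, or 4 without Babeni site 2 replicate 3 or without Valcea replicate 2, and 0 fell at the threshold, or 1 without Babeni site 2 replicate 2, Valcea replicate 1 or Valcea replicate 2. Sugar carrier C, a hexose symporter, rose from 30.2, 31.0 and 29.3 CPM to 95.8, 74.0 and 88.1 CPM (Locus_2927_Transcript_10_12_, 1.49 ± 0.13, adjusted p = 5.9e-07).

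Nutrient uptake held more falls than rises. In nitrogen uptake and assimilation 28 of 60 transcripts fell and 16 rose, or 10 without Babeni site 2 replicate 2. By locus the directions were closer to even, with fallen transcripts in 10 of 21 loci and risen ones in 8. Ammonium transporter 2 carries ammonium across the plasma membrane. Its transcript Locus_2008_Transcript_1_1_ was at 39.7, 29.3 and 22.4 CPM at Valcea and 7.60, 9.39 and 7.65 CPM at Babeni site 2 (-1.80 ± 0.21, adjusted p = 8.8e-06), and a transcript of another locus, Locus_1953_Transcript_1_3_, fell with a difference of -1.98 ± 0.32, adjusted p = 2.7e-04. In the high affinity nitrate transporter locus all 8 tested transcripts fell, and their sum went from 548 ± 123 to 47.5 ± 4.62 CPM (Locus_1335_Transcript_18_19_). For phosphate, 9 of 20 fell and 0 rose, or 1 without Valcea replicate 1. The phosphate members with the largest changes were glycerol-3-phosphate transporters of 3 loci. Locus_2826_Transcript_4_5_ went from 73.5, 79.3 and 61.1 CPM to 15.7, 16.4 and 17.8 CPM (-2.06 ± 0.14, adjusted p = 2.1e-08). The others were Locus_3835_Transcript_1_1_ (-2.06 ± 0.19, adjusted p = 5.8e-07) and Locus_16078_Transcript_1_1_ (-1.75 ± 0.32, adjusted p = 8.4e-04).

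Sulfur assimilation, which feeds cysteine and glutathione, was split, with 5 of 17 transcripts fallen and 4 risen. The falls numbered 2 without Babeni site 2 replicate 1 or 2, and 3 without Babeni site 2 replicate 3 or Valcea replicate 2, and the rises numbered 2 without Babeni site 2 replicate 1 or Valcea replicate 2. ATP sulfurylase takes the first step from sulfate. Locus_9987_Transcript_1_1_ stood at 87.0, 89.2 and 79.8 CPM at Valcea and 17.5, 19.9 and 18.3 CPM at Babeni site 2 (-2.17 ± 0.13, adjusted p = 7.1e-09), and Locus_9078_Transcript_5_6_ of another locus fell as well (-1.81 ± 0.19, adjusted p = 3.8e-06). Sulfite oxidase, which turns sulfite back into sulfate, rose from 29.4, 30.1 and 32.7 CPM to 76.7, 83.0 and 85.3 CPM (Locus_5378_Transcript_1_1_, 1.40 ± 0.13, adjusted p = 6.7e-07). Each of these groups was separate.

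Phenylpropanoid and flavonoid synthesis, the source of lignin, anthocyanins and ultraviolet screens, fell in 52 of 77 transcripts and rose in 13. Locus_11825_Transcript_3_3_, described as anthocyanin 2, was at 24.2, 23.9 and 21.3 CPM at Valcea and 1.40, 1.00 and 2.02 CPM at Babeni site 2 (-3.61 ± 0.22, adjusted p = 5.7e-09), and Locus_4048_Transcript_2_4_ with the same description fell with a difference of -3.39 ± 0.34, adjusted p = 1.9e-06. In Locus_4048_Transcript_2_4_, 1 Babeni site 2 library had no read. TRANSPARENT TESTA 12, in Arabidopsis a transporter that moves flavonoids into the vacuole, went from 14.3, 11.4 and 11.1 CPM to 1.52, 0.876 and 0.578 CPM (Locus_5151_Transcript_7_9_, -3.14 ± 0.28, adjusted p = 6.0e-07). Members also rose. An isoflavone reductase homolog rose from 4.77, 4.02 and 3.20 CPM to 31.2, 31.2 and 32.8 CPM (Locus_7602_Transcript_5_6_, 2.86 ± 0.18, adjusted p = 1.3e-08), and a dirigent protein, of the family that guides the coupling of lignin-type monomers, rose from 396, 304 and 336 CPM to 735, 764 and 949.8 CPM (Locus_1907_Transcript_1_1_, 1.24 ± 0.13, adjusted p = 3.7e-06). In the direct test 5 of the 77 were lower at Babeni site 2 than at Babeni site 1 and 5 were higher, near the 8.62% and 5.38% of described transcripts.

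Heat shock proteins and chaperones fell in 62 of 97 transcripts, over 30 of 52 loci, and rose in 17, or 11 without Babeni site 2 replicate 3. HSP70 proteins fold new and damaged proteins. In their largest locus 12 of 18 tested transcripts fell and 0 rose, and the sum went from 1855 ± 148 to 231 ± 3.30 CPM. Its transcript with the highest CPM, an HSC70-2-like protein, had 1082, 1098 and 914 CPM in the Valcea libraries, a mean of 571 ± 43.0 CPM at Babeni site 1 and 113, 102 and 115 CPM in the Babeni site 2 libraries (Locus_1034_Transcript_35_36_, -3.22 ± 0.12, adjusted p = 1.5e-11). Babeni site 2 differed from Babeni site 1 by -2.37 ± 0.12. Heat stress factor B-2b, a transcription factor of the heat response, fell from 8.74, 9.94 and 5.64 CPM to 0.117, 0.876 and 0 CPM (Locus_18464_Transcript_3_4_, -3.48 ± 0.40, adjusted p = 8.7e-06), and 1 Babeni site 2 library had no read. A DnaJ-related co-chaperone fell from 9.61 ± 1.75 to 0.428 ± 0.0750 CPM (Locus_2019_Transcript_2_3_, -3.43 ± 0.24, adjusted p = 2.6e-08). Chaperones among the risen ones included an HSP70-17-like protein at 50.4, 39.8 and 62.1 CPM at Valcea and 162, 157 and 137 CPM at Babeni site 2 (Locus_12345_Transcript_1_1_, 1.59 ± 0.15, adjusted p = 1.0e-06). Calreticulin 2, a calcium-binding chaperone of the endoplasmic reticulum, rose from 162, 131 and 175 CPM to 416, 405 and 372 CPM (Locus_541_Transcript_20_21_, 1.36 ± 0.12, adjusted p = 6.1e-07), with 5 of 11 transcripts of its locus risen and 0 fallen.

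Proteases and autophagy fell in 55 of 108 transcripts and rose in 16, or 9 without Babeni site 2 replicate 1. FtsH proteases of the chloroplast remove damaged photosystem II proteins. Locus_5714_Transcript_5_6_ was at 509.5, 597 and 599 CPM at Valcea and 222, 184 and 218 CPM at Babeni site 2 (-1.45 ± 0.12, adjusted p = 3.2e-07), and Locus_3136_Transcript_2_8_ of another locus fell from 12.3 ± 1.68 to 0.741 ± 0.457 CPM (-3.43 ± 0.31, adjusted p = 6.3e-07). A protein with a LON N-terminal and a RING domain fell from 34.9, 32.2 and 38.8 CPM to 2.34, 2.88 and 2.60 CPM (Locus_6071_Transcript_4_5_, -3.53 ± 0.19, adjusted p = 1.5e-09).

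Antioxidant and thiol enzymes moved in both directions, 38 of 92 fallen and 29 risen. A chloroplast peroxiredoxin, which reduces peroxides with thiol groups, fell from 25.0, 21.5 and 14.5 CPM to 1.40, 2.13 and 4.19 CPM (Locus_1574_Transcript_2_2_, -2.83 ± 0.29, adjusted p = 2.7e-06). A chloroplast methionine sulfoxide reductase, which repairs oxidised methionine, fell from 33.3 ± 4.12 to 7.88 ± 1.55 CPM (Locus_9249_Transcript_3_6_, -2.02 ± 0.21, adjusted p = 3.7e-06). Among the risen members, L-ascorbate oxidase, which oxidises ascorbate in the cell wall, went from 2.38, 1.89 and 2.07 CPM to 12.9, 9.89 and 14.3 CPM (Locus_880_Transcript_14_17_, 2.29 ± 0.21, adjusted p = 5.9e-07), and 5 of 7 transcripts of its locus rose. A peroxidase, described without a compartment, rose from 359.8, 340.0 and 289 CPM to 735, 648 and 836 CPM (Locus_1537_Transcript_11_14_, 1.16 ± 0.13, adjusted p = 4.7e-06). Only 2 of 10 transcripts of that locus rose, and the locus sum went from 882 ± 92.4 to 1161 ± 159 CPM, a difference of 0.39 ± 0.12 (adjusted p = 0.031). Transcripts described as oxidative stress isoform 1 and 2, which the list did not take in, were among the 12 largest described rises. Locus_6864_Transcript_1_1_ rose from 27.0, 17.5 and 20.9 CPM to 127, 177 and 174 CPM (2.85 ± 0.19, adjusted p = 1.5e-08) and Locus_6197_Transcript_1_2_ from 1.51 ± 0.436 to 17.2 ± 3.54 CPM (3.14 ± 0.29, adjusted p = 6.7e-07), both also higher than at Babeni site 1, by 1.28 ± 0.19 and 2.25 ± 0.29.

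Metal transport and homeostasis fell in 9 of 21 transcripts and rose in 4. The rise with the highest CPM was a multicopper oxidase of the LPR1 type, in Arabidopsis a ferroxidase of roots that takes part in the response to low phosphate. It had 113, 124 and 109.9 CPM in the Valcea libraries, a mean of 211 ± 40.2 CPM at Babeni site 1 and 627, 408 and 541 CPM in the Babeni site 2 libraries (Locus_7337_Transcript_1_1_, 2.16 ± 0.16, adjusted p = 5.2e-08). Its Babeni site 2 values lay above those of both other sites, with 1.31 ± 0.16 against Babeni site 1. A copper transporter fell from 28.2, 24.8 and 14.5 CPM to 5.03, 4.88 and 6.93 CPM (Locus_9365_Transcript_1_1_, -1.87 ± 0.24, adjusted p = 2.7e-05). Nicotianamine aminotransferase, which in grasses makes iron-binding phytosiderophores, fell from 8.90 ± 1.24 to 2.36 ± 0.494 CPM (Locus_584_Transcript_9_10_, -1.72 ± 0.25, adjusted p = 9.5e-05). Among transcripts that the authors' tables tie to the response to cadmium ions, 68 of 193 rose and 75 fell, with a median difference of 0.03, beside -0.41 for all described and 0.05 for all tested transcripts.

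Other membrane transport was mixed. Of 47 ABC and MATE transporters 18 rose and 15 fell. The largest changes named in this list were falls, that of TRANSPARENT TESTA 12 above among them. The others were ABCA7-like (Locus_2631_Transcript_4_10_, -2.81 ± 0.33, adjusted p = 9.6e-06) and a MATE efflux protein (Locus_591_Transcript_14_15_, -1.96 ± 0.25, adjusted p = 2.2e-05). ABCC4-like, of the family that exports conjugates, rose from 23.4, 16.1 and 19.4 CPM to 53.6, 51.2 and 45.3 CPM (Locus_15271_Transcript_1_1_, 1.34 ± 0.15, adjusted p = 7.3e-06). A guard cell SLAC1-like anion channel, of a separate list, had the steepest fall among the named described transcripts. It went from 54.0, 50.9 and 42.3 CPM to 0.234, 0.125 and 0.433 CPM (Locus_5516_Transcript_4_5_, -6.03 ± 0.27, adjusted p = 1.4e-10). All 4 tested transcripts of its locus fell, and the locus sum went from 163 ± 18.6 to 1.14 ± 0.230 CPM. Babeni site 1 stood at 0.525 ± 0.207 CPM. Of 43 ion pumps and channels 13 rose and 8 fell. A cation/proton antiporter transcript rose from 1.96 ± 0.558 to 9.92 ± 1.06 CPM (Locus_2319_Transcript_2_6_, 2.10 ± 0.23, adjusted p = 5.9e-06), but it was the 1 risen of 4 in its locus, whose sum went from 86.8 ± 15.7 to 159.9 ± 25.1 CPM, under 2-fold at 0.88 ± 0.15 (adjusted p = 6.4e-04). Potassium transporter 8 rose from 10.8 ± 1.87 to 32.3 ± 1.28 CPM (Locus_4872_Transcript_10_12_, 1.55 ± 0.20, adjusted p = 2.9e-05). A plasma membrane proton ATPase with the list's highest CPM stood at 572, 519.9 and 528 CPM at Valcea and 288, 292 and 288 CPM at Babeni site 2 (Locus_53_Transcript_16_19_, -0.90 ± 0.11, adjusted p = 2.6e-05), separate groups but under 2-fold. Aquaporins, water channels, rose in 5 of 15 transcripts, or 3 without Babeni site 2 replicate 1 or 3 or Valcea replicate 3. Their falls numbered 4, but 2 without Babeni site 2 replicate 1 or Valcea replicate 1, 1 without Babeni site 2 replicate 2 or 3, and 0 without Valcea replicate 2.

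Receptor-like kinases held more risen transcripts than any other list. They span the plasma membrane and pass on signals from the cell wall, peptides and microbes. Of 142 tested transcripts in 87 loci, 91 rose and 4 fell, with risen transcripts in 56 loci, fallen ones in 4 and a median difference of 1.14. The kinase with the highest CPM, a leucine-rich repeat type (Locus_17735_Transcript_1_1_), was at 58.0, 54.2 and 72.6 CPM at Valcea and 197, 199 and 176 CPM at Babeni site 2 (1.63 ± 0.15, adjusted p = 4.8e-07). Babeni site 1 stood at 172 ± 30.4 CPM. Locus_17110_Transcript_1_1_, described by its likeness to Arabidopsis At1g67000, rose from 0.947 ± 0.241 to 7.62 ± 2.52 CPM (2.46 ± 0.26, adjusted p = 4.0e-06), and Locus_3072_Transcript_9_11_, described by likeness to At3g55450, from 1.30 ± 0.461 to 8.30 ± 3.23 CPM (2.26 ± 0.33, adjusted p = 1.1e-04). In the direct test 6 of the 142 were higher at Babeni site 2 than at Babeni site 1 and 9 were lower, near the 5.38% and 8.62% of described transcripts. In the locus of the lectin-domain kinase with the largest rise (Locus_2161_Transcript_4_6_), all 5 tested transcripts rose and the sum went from 2.30 ± 0.786 to 30.5 ± 4.32 CPM.

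**Figure D4:**
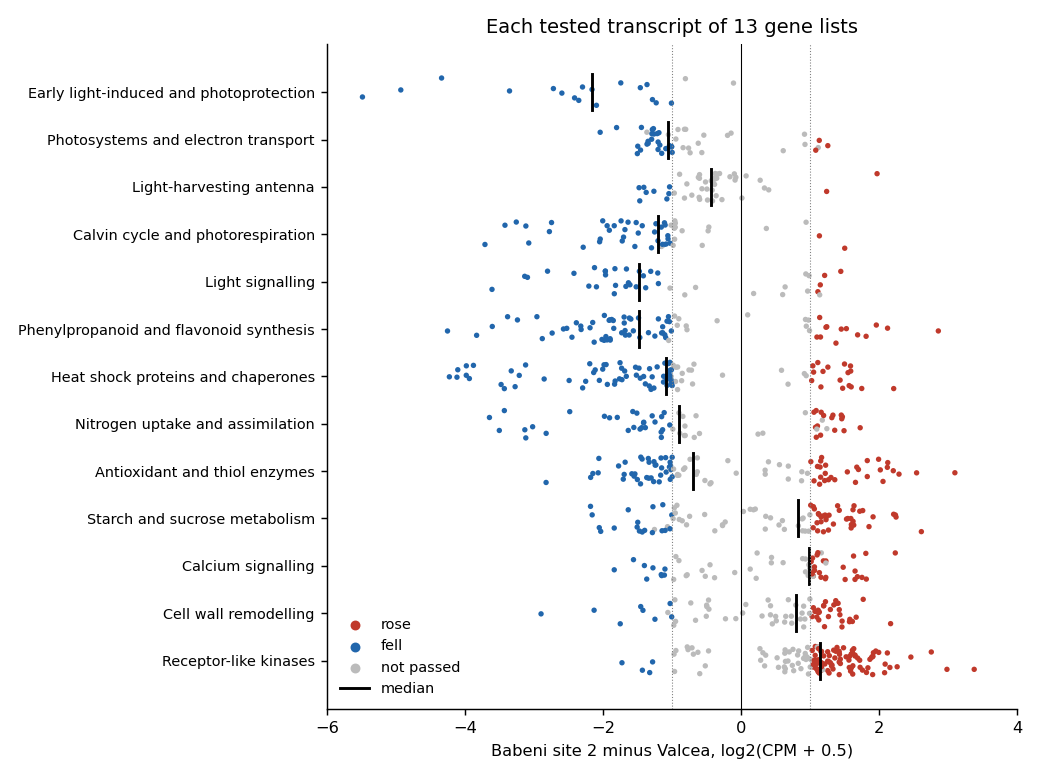
Each point is a tested transcript of 1 of 13 gene lists, placed by its difference between Babeni site 2 and Valcea on the log2(CPM + 0.5) scale and coloured by whether it rose, fell or did not pass, black bars are list medians and dotted lines mark 2-fold. Photoprotection spreads from -5.49 to -0.11 around its median of -2.16, while most receptor-like kinases crowd around 1.14.

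Calcium signalling rose in 25 of 60 transcripts, or 16 without Babeni site 2 replicate 1 or 2, and fell in 9. CBL-interacting kinase 23, which in Arabidopsis activates potassium and nitrate transport, rose from 8.34, 9.70 and 15.4 CPM to 31.1, 43.8 and 31.0 CPM (Locus_18284_Transcript_1_1_, 1.65 ± 0.20, adjusted p = 2.0e-05). A calmodulin-like protein CML36 fell from 9.98 ± 2.60 to 2.38 ± 0.430 CPM (Locus_2691_Transcript_3_4_, -1.84 ± 0.27, adjusted p = 1.3e-04). Immunity and defence were divided, with 13 of 40 risen and 15 fallen, or 9 fallen without Babeni site 2 replicate 1. Hypersensitive-induced response protein 1, a membrane scaffold protein of defence, went both ways: Locus_170_Transcript_10_15_ fell from 15.9, 23.7 and 22.2 CPM to 1.40, 2.13 and 2.31 CPM (-3.11 ± 0.25, adjusted p = 1.3e-07), and Locus_1647_Transcript_12_13_ of another locus rose from 2.52 ± 1.16 to 24.2 ± 1.63 CPM (3.12 ± 0.29, adjusted p = 7.6e-07). The locus sum of the first went from 113 ± 9.92 to 64.8 ± 6.66 CPM, under 2-fold at -0.81 ± 0.12 (adjusted p = 2.1e-04), and that of the second from 15.1 ± 2.22 to 67.3 ± 5.40 CPM. A pathogenesis-related class I protein, an antimicrobial marker of defence, rose from 4.37, 4.73 and 4.33 CPM to 21.8, 44.4 and 33.6 CPM (Locus_18711_Transcript_3_5_, 2.71 ± 0.22, adjusted p = 2.1e-07). Disease resistance response protein 206 rose from 23.8, 26.3 and 29.9 CPM to 91.5, 87.0 and 97.6 CPM (Locus_1348_Transcript_1_2_, 1.77 ± 0.13, adjusted p = 5.4e-08), and both were higher than at Babeni site 1, by 1.95 ± 0.22 and 1.43 ± 0.13.

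Among hormones, auxin transcripts fell in 15 of 32 and rose in 4. IAA11, a repressor of auxin responses, was at 81.8, 96.8 and 85.6 CPM at Valcea and 27.6, 24.7 and 26.3 CPM at Babeni site 2 (Locus_3349_Transcript_1_1_, -1.73 ± 0.16, adjusted p = 6.1e-07). Jasmonate and ethylene transcripts rose in 13 of 29 and fell in 4, with ethylene-overproduction protein 1, a brake on ethylene synthesis in Arabidopsis, from 1.52 ± 0.986 to 7.78 ± 1.17 CPM (Locus_17286_Transcript_1_1_, 2.19 ± 0.34, adjusted p = 2.1e-04) among the rises. EIN3-binding F-box protein 1, which removes the ethylene factor EIN3, is not counted in that list. It fell from 8.74, 8.52 and 4.70 CPM to 0, 0.250 and 0.144 CPM (Locus_11702_Transcript_4_5_, -3.60 ± 0.37, adjusted p = 2.4e-06). Abscisic acid, gibberellin, cytokinin and brassinosteroid transcripts showed 4 rises and 4 falls in 22, with 2 falls without any single Babeni site 2 library or without Valcea replicate 2. Pyruvate decarboxylase, the entry to ethanol fermentation, fell in 2 loci and rose in 1. Locus_10391_Transcript_1_1_ was at 69.5, 57.3 and 39.3 CPM at Valcea and 16.6, 10.8 and 13.1 CPM at Babeni site 2 (-1.98 ± 0.21, adjusted p = 4.2e-06), Locus_476_Transcript_11_17_ fell with a difference of -1.58 ± 0.24, adjusted p = 1.3e-04, and Locus_14506_Transcript_2_2_ rose from 7.83 ± 1.87 to 17.8 ± 0.966 CPM (1.16 ± 0.20, adjusted p = 4.3e-04).

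Of 186 transcription factor transcripts 61 rose and 53 fell, shares near those of all described transcripts. bHLH30-like fell from 31.8, 18.7 and 18.8 CPM to 0.585, 0.250 and 0.433 CPM (Locus_7214_Transcript_3_3_, -4.65 ± 0.26, adjusted p = 3.1e-09). An R2R3 MYB of the C2 repressor type, a family that represses flavonoid genes, fell from 8.13 ± 0.583 to 0.366 ± 0.296 CPM (Locus_2457_Transcript_1_1_, -3.37 ± 0.32, adjusted p = 1.1e-06). A MYB-like protein with the list's highest CPM fell from 152, 174 and 177 CPM to 35.3, 47.9 and 39.4 CPM (Locus_2369_Transcript_1_1_, -2.03 ± 0.13, adjusted p = 1.3e-08), and at Babeni site 1 stood at 158 ± 9.14 CPM. Ubiquitin ligases and F-box proteins, which mark proteins for removal, rose in 67 of 185 and fell in 45. The F-box protein SKIP23-like rose from 8.34, 8.76 and 6.02 CPM to 63.9, 56.1 and 69.3 CPM (Locus_12043_Transcript_2_2_, 2.97 ± 0.17, adjusted p = 3.9e-09), and its values at the sites did not overlap.

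Cell wall remodelling rose in 28 of 71 transcripts and fell in 8. Extensin-2, a structural wall protein, rose from 86.6, 132 and 82.8 CPM to 236, 229.7 and 171 CPM (Locus_534_Transcript_9_10_, 1.09 ± 0.19, adjusted p = 4.9e-04), a call lost without Valcea replicate 3, when the difference was 0.97. The locus sum differed by 0.91 ± 0.17 (adjusted p = 0.0013). Expansin-B3-like, of the family that loosens walls, fell from 37.7, 32.7 and 23.7 CPM to 4.09, 3.25 and 3.75 CPM (Locus_6290_Transcript_12_15_, -2.90 ± 0.22, adjusted p = 7.0e-08). In its locus 2 of 7 transcripts fell, and the locus sum differed by -0.85 ± 0.14 (adjusted p = 5.0e-04), under 2-fold. Lipid metabolism rose in 22 of 66 and fell in 14, or 9 without Valcea replicate 2. A chloroplast omega-3 fatty acid desaturase, which makes the trienoic fatty acids of thylakoid membranes, fell from 13.9, 20.1 and 9.97 CPM to 2.34, 0.626 and 1.30 CPM (Locus_869_Transcript_13_18_, -3.03 ± 0.32, adjusted p = 4.1e-06), and the sum of its locus went from 96.4 ± 20.1 to 35.3 ± 6.74 CPM. Vesicle traffic and the cytoskeleton rose in 23 of 98, or 15 without Babeni site 2 replicate 1, and fell in 26. The exocyst subunit EXO70B1, which tethers secretory vesicles, stood at 51.2, 43.8 and 35.6 CPM at Valcea and 5.61, 3.25 and 5.49 CPM at Babeni site 2 (Locus_1328_Transcript_3_8_, -3.08 ± 0.20, adjusted p = 1.1e-08). Babeni site 1 was at 33.0 ± 2.51 CPM, from which Babeni site 2 differed by -2.69 ± 0.20, and all 7 tested transcripts of the locus fell.

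RNA splicing and RNA-binding proteins rose in 28 of 64 transcripts and fell in 11. The spliceosome core protein PRP8, described as pre-mRNA-processing-splicing factor 8, rose from 23.4, 24.8 and 45.3 CPM to 71.9, 73.6 and 58.0 CPM (Locus_2708_Transcript_19_20_, 1.17 ± 0.20, adjusted p = 5.8e-04), with a difference of 0.996 and no call without Valcea replicate 1, and no call with thinned reads. Pentatricopeptide proteins, which process organelle RNA, fell in 13 of 25 and rose in 2, a count that was 1 without Babeni site 2 replicate 1 or 3 and 0 without Babeni site 2 replicate 2 or Valcea replicate 1. Transcripts described as transposon-like rose in 5 of 13 and fell in 0, or 1 without Valcea replicate 3. Chromatin proteins rose in 8 of 27 and fell in 5, but the rises numbered 1 without Babeni site 2 replicate 2, 3 without Babeni site 2 replicate 1 and 5 without Valcea replicate 1 or 2, and the falls 3 without Valcea replicate 1 and 2 without Valcea replicate 2. Ribosomal proteins fell in 4 of 36 and rose in 0, and the falls numbered 11 without Valcea replicate 1 and 7 without Valcea replicate 3.

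A few abundant transcripts of these lists were uneven within Valcea, and replicate 3 stood apart in each. Ribosomal protein S10 was at 2534, 2402 and 351 CPM at Valcea and 784, 611 and 1149 CPM at Babeni site 2 (Locus_2749_Transcript_1_1_, -0.65 ± 0.50, adjusted p = 0.394). A retrotransposon protein had 2351, 2517 and 317 CPM and 818, 382 and 1130.2 CPM (Locus_1267_Transcript_1_1_, -0.80 ± 0.55, adjusted p = 0.337). In these and in CP43 the Valcea replicate 3 value was the lowest of its site, while in beta-tubulin, with 119.9, 234 and 1040.2 CPM at Valcea and 223, 554 and 328 CPM at Babeni site 2 (Locus_2918_Transcript_1_1_, 0.16 ± 0.53, adjusted p = 0.871), and histone H2A, with 9.13, 24.4 and 80.3 CPM and 12.9, 46.8 and 31.8 CPM (Locus_5027_Transcript_1_1_, 0.03 ± 0.55, adjusted p = 0.981), it was the highest. None of the 4 passed, nor did CP43. Without Valcea replicate 3 the whole comparison had 8397 changed transcripts.

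The largest moves in CPM itself, chosen here after their values were seen, were mostly falls. PsbS and the RuBisCO small subunit were among them, and so were a pair of isoprenoid enzymes. A polyprenyl diphosphate synthase stood at 1497, 1782 and 1784 CPM at Valcea and 282, 269 and 305 CPM at Babeni site 2 (Locus_342_Transcript_1_1_, -2.56 ± 0.12, adjusted p = 2.6e-10), and a prenyl transferase-like transcript at 1238, 1269 and 1216 CPM and 111, 109.5 and 122 CPM (Locus_2606_Transcript_1_1_, -3.44 ± 0.12, adjusted p = 8.6e-12). Their groups lay far apart. The largest gain was that of Locus_57306_Transcript_1_1_, which has no description and rose from 529.8 ± 95.1 to 2501 ± 235 CPM (2.25 ± 0.13, adjusted p = 5.4e-09). Among described transcripts the largest gain in CPM was that of a patatin group A-3 protein, of a family of storage proteins with lipase activity. It rose from 1142, 1172 and 930.0 CPM to 2206, 1983 and 2365 CPM (Locus_4_Transcript_16_17_, 1.02 ± 0.12, adjusted p = 1.8e-05), and the call was lost with median centring and without Babeni site 2 replicate 3 or Valcea replicate 3, with differences down to 0.91. Its locus sum went from 1488 ± 170.3 to 2669 ± 230.4 CPM, a difference of 0.85 ± 0.12 (adjusted p = 1.3e-04). The sucrose synthase Locus_326_Transcript_42_43_ rose from 297, 300.0 and 258 CPM to 956, 816 and 883 CPM (1.63 ± 0.11, adjusted p = 3.2e-08).

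Changed transcripts with no description numbered 4093, of which 2142 rose and 1951 fell. The steepest rise among them, Locus_79604_Transcript_1_1_, was uneven: it went from 0, 0.473 and 0.188 CPM at Valcea to 344, 262 and 23.1 CPM at Babeni site 2 (7.53 ± 0.98, adjusted p = 3.3e-05). Locus_65710_Transcript_1_1_ rose from 0, 0.710 and 0.188 CPM to 38.4, 48.4 and 56.2 CPM with close replicates (5.99 ± 0.27, adjusted p = 2.1e-10). Locus_39168_Transcript_2_2_ fell from 88.6, 64.1 and 53.2 CPM to 0.468, 0.876 and 1.30 CPM (-5.66 ± 0.24, adjusted p = 7.8e-11), and Locus_73928_Transcript_2_2_ from 505, 434 and 389.6 CPM to 9.94, 10.0 and 14.0 CPM (-5.24 ± 0.15, adjusted p = 9.1e-13). The files give these transcripts no gene name. Across all transcripts, 83 of the risen ones had no read in any Valcea library and 13 of the fallen ones none at Babeni site 2. The Valcea libraries are the shallower ones, so a lack of reads is reached more easily there and these counts are not comparable.

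Transcripts of 1 locus rarely went opposite ways. Of 5340 loci with a changed transcript, 862 had at least 2 changed ones, and 22 held both a risen and a fallen one. The widest split lay in a BCS1-b-like mitochondrial chaperone. Locus_421_Transcript_23_25_ rose from 7.55, 4.02 and 6.96 CPM to 32.4, 27.8 and 37.8 CPM (2.35 ± 0.21, adjusted p = 4.1e-07), Locus_421_Transcript_18_25_ fell from 100.1, 88.3 and 70.7 CPM to 38.7, 34.8 and 41.6 CPM (-1.15 ± 0.14, adjusted p = 2.3e-05), and the sum of the locus went from 186 ± 22.2 to 194 ± 17.6 CPM, a difference of 0.06 ± 0.12 (adjusted p = 0.733). Phosphoethanolamine N-methyltransferase 1, which makes precursors of phosphatidylcholine, split in the same manner: Locus_1774_Transcript_10_13_ fell from 39.5 ± 7.36 to 8.74 ± 0.574 CPM (-2.10 ± 0.20, adjusted p = 8.5e-07), Locus_1774_Transcript_5_13_ rose from 2.43 ± 0.560 to 5.33 ± 0.757 CPM (1.00 ± 0.23, adjusted p = 0.0048), and the locus sum differed by -0.21 ± 0.12 (adjusted p = 0.233). The rise of Locus_1774_Transcript_5_13_ was lost under 6 settings: a pseudocount of 2, median centring, quantile normalization, thinned reads, and without Babeni site 2 replicate 3 or Valcea replicate 2, where differences went down to 0.87. In a cysteine proteinase locus Locus_9269_Transcript_7_10_ fell from 12.9 ± 1.64 to 5.40 ± 0.603 CPM, Locus_9269_Transcript_6_10_ rose from 1.76 ± 0.910 to 6.18 ± 1.18 CPM and the locus difference was 0.15 ± 0.12 (adjusted p = 0.379). In glyceraldehyde-3-phosphate dehydrogenase, Locus_148_Transcript_15_17_ fell from 922 ± 74.3 to 439.9 ± 37.6 CPM, Locus_148_Transcript_10_17_ rose from 9.15 ± 1.21 to 29.7 ± 5.10 CPM, and the locus sum differed by -0.57 ± 0.11 (adjusted p = 0.0019), under 2-fold. The fall of Locus_148_Transcript_15_17_ was not called with quantile normalization, nor without Babeni site 2 replicate 2, when the difference was -0.997.

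**Figure D5:**
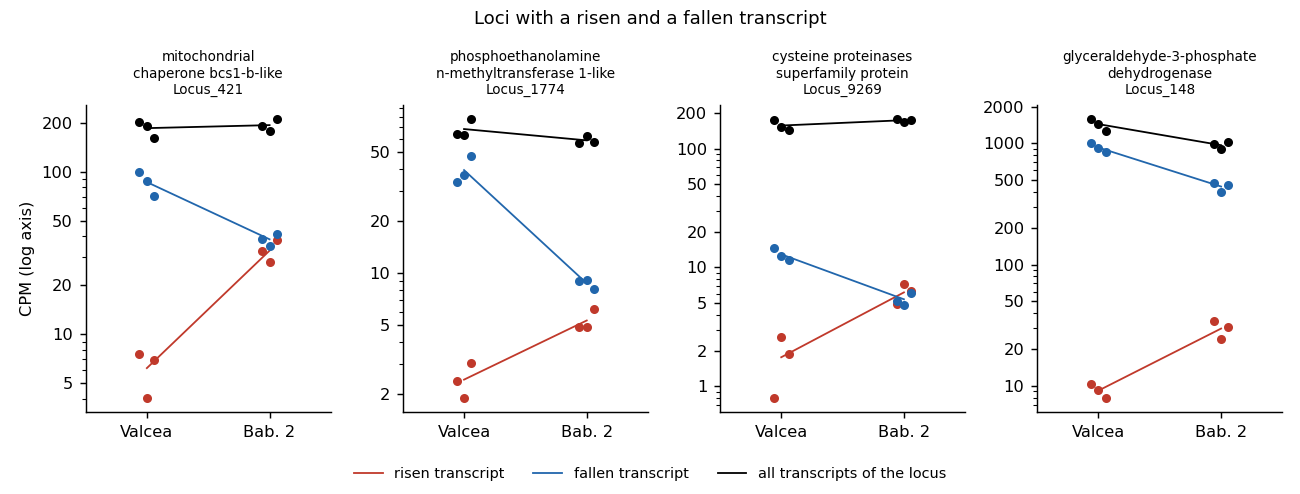
CPM per library on log axes at Valcea and Babeni site 2 (Bab. 2), 3 libraries each, for a risen transcript (red), a fallen transcript (blue) and the sum of all transcripts (black) of 4 loci, with lines through site means. In the BCS1-b-like chaperone the sum went from 186 ± 22.2 to 194 ± 17.6 CPM, while the risen and the fallen transcript moved towards each other.

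Set beside Babeni site 1, the comparison with Valcea shares its 3 Valcea libraries, so values are given side by side. Babeni site 1 differed from Valcea in 9.08% of tested transcripts, with 4.17% risen and 4.90% fallen. Of the 3407 transcripts risen at Babeni site 2, 1270 were also called risen at Babeni site 1. Of the 3454 fallen ones, 1710 were also called fallen there. The Babeni site 1 mean lay between those of Valcea and Babeni site 2 for 82.4% of the risen and 78.7% of the fallen transcripts. The direct test between the Babeni sites called 3.18% of tested transcripts, 879 (1.55%) higher and 926 (1.63%) lower at Babeni site 2. Transcripts that fell at Babeni site 2, were lower there than at Babeni site 1 and were not called between Babeni site 1 and Valcea included LHY-like, EXO70B1-like and the MYB-like protein above. A chloroplast heme-binding-like protein was another: Locus_15194_Transcript_4_6_ had 52.0, 42.4 and 35.7 CPM in the Valcea libraries, a mean of 40.8 ± 6.29 CPM at Babeni site 1 and 2.11, 1.38 and 2.31 CPM in the Babeni site 2 libraries, with a difference of -4.10 ± 0.20 between the Babeni sites.

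The authors' deposited table of Babeni site 2 against Valcea lists 8700 transcripts, 4104 higher and 4596 lower. Of the 6861 changed transcripts here 6759 are in it (98.5%), which are 77.7% of the authors' list, and all 6759 have the same direction.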

How the data were processed

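Stranded mRNA libraries were made from 300 ng of total RNA per sample with a TruSeq kit, per the labels' protocols. Tools listed in the submitters' processing notes, with no roles, are TopHat2 2.0.11, BWA 0.7.10, edgeR 3.4.2 and HTSeq 0.5.3p9. Which assembly and annotation served for Elodea is not given in the sources used here. Per the file headers and names, the authors' deposited signal is edgeR CPM, and every library carries its own scaling factor. The authors' comparison tables hold log2 fold changes, a p-value and an FDR for the transcripts they called, with the gene descriptions, per the file headers. Because library totals are not 1 common sum, the values were treated as signal and not as plain CPM, and the planned test was kept.

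Dividing by the worth of 1 read gave whole numbers within 0.01 for all values, so reads were recovered for the count tests. Transcripts reaching 1 CPM in 3 or more of the 9 Elodea libraries, 56752 of 58110, were fitted on log2(CPM + 0.5) with limma 3.58.1 (R 4.3.3), using a trended prior variance and no covariates. The contrast was Babeni site 2 minus Valcea, and adjusted p-values cover all tested transcripts. DESeq2 1.42.0 and edgeR 4.0.16 on the recovered reads, other pseudocounts, filters and scalings, thinned reads, sums per locus and leaving out each library were alternatives. The fit was also run on simulated data, in which only transcripts of 5 CPM or more were changed, by well over 2-fold. That run does not cover changes near 2-fold or lower transcripts, and no result here rests on it.

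The gene lists are keyword searches in the authors' descriptions. The comparison, its lists and the rule for named transcripts were chosen with earlier results of these data known. That rule took, among changed transcripts with separate groups, an informative description and 5 CPM or more on average at the higher site, the 12 largest rises and 12 largest falls, the 3 largest changes and the member with the highest CPM of each list, 4 loci with opposite transcripts and 4 transcripts with no description, and exceptions are marked in the text. Not every transcript that the rule took is described here. Means are given ± SD over 3 libraries per site. Reads carry no molecular identifiers, so read numbers are not independent molecules. Sequences of this species were not used here.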

Additional observations from a re-analysis of the deposited data

How the results depend on the processing

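The number of changed transcripts depends on how low values are treated. Against 6861 (3407 risen, 3454 fallen), it was 3313 (1455 and 1858) with a pseudocount of 2, 3308 (1402 and 1906) with a minimum of 5 CPM and 11340 (5706 and 5634) with adjusted p alone. DESeq2 called 2250 rises, 5333 in all, and sums per locus gave 4543 changed loci, 2200 of them fallen, from fewer features. Leaving out 1 library gave 5479 to 8397 changed transcripts, 2535 to 4415 risen and 2944 to 3982 fallen, the highest without Valcea replicate 3 and the lowest without Babeni site 2 replicate 1. Median centring gave 6851, quantile normalization 6703, edgeR 7507 and reads thinned to the shallowest library 5899.

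The labels name no pairing, and correlations of same-numbered deviations were -0.031, -0.032 and -0.16. Replicate numbers follow the sample titles and need not match plants or batches, so these values cannot exclude a pairing. With the replicate number as a block 6583 transcripts changed, 3249 up and 3334 down. Of 1800 list counts under the alternatives 248 moved by over 1.5 times. Of 185 named transcripts with a call, 166 kept it under every setting run on them (locus sums and adjusted p alone were not, and the 5 CPM minimum left some out). Of the 185, 0 changed direction under any such setting. Of 3532 values of all named transcripts, 62 lost the call and 9 gained one. Transcripts with no call could change direction. The difference of Locus_2918_Transcript_1_1_, for example, ranged from -0.52 to 1.03 when 1 library was left out. A plasma membrane aquaporin (Locus_2720_Transcript_1_9_) lost its call under 11 settings. Its locus sum went from 53.5 ± 12.7 to 39.1 ± 2.14 CPM, a difference of -0.42 ± 0.18 (adjusted p = 0.102). Valcea is the shallow side, so transcripts under about 1 CPM there are the least certain.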
